A study of Homo sapiens with 17 samples.

Results

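AluS copies are the middle-aged members of the human Alu family, and 649934 of them, in 17 subfamilies, were described here across RNA pulled down with the LINE-1 proteins ORF1p and ORF2p. They were taken from a table of 3594049 repeat copies as every copy whose subfamily name starts with AluS, without use of any read value. All libraries came from N2102Ep, a human line of embryonal carcinoma, a tumour of germ cells with features of early embryonic cells. The groups were ORF1p RIP (RNA immunoprecipitation with ORF1p as target, n = 4 libraries), ORF2p RIP (n = 4), mock IP (n = 3, named mIgG in the labels) and total RNA (n = 6, with no treatment label). The labels of ORF2p RIP, mock IP and total RNA give the source as N2102Ep clone 2/A6, whereas those of ORF1p RIP give only "embryonal" beside the line's name. Source label and target therefore cannot be told apart in any comparison with ORF1p RIP. The labels name no separate cultures, so the p-values below rest on the spread from library to library, part or all of which may be technical.

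Alu elements are short interspersed elements derived from the 7SL RNA of the signal recognition particle. They carry an internal RNA polymerase III promoter and an A-rich end, encode no protein, and are copied into the genome by the ORF2p reverse transcriptase of LINE-1. ORF1p binds RNA and packs LINE-1 transcripts into particles. Most Alu sequence in RNA lies in introns and untranslated regions of transcripts made by RNA polymerase II, where a copy can run with the gene or against it. Short reads from a copy within a gene do not tell a transcript of the Alu itself from the transcript of the gene.

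The sequences below show what an AluS copy looks like at its conserved start and at its A-rich end, which short reads from many copies share. They are the stretches of AluS copies that RefSeq promoter and miRNA records (GRCh38.p14) hold, each 5′ to 3′ along the Alu strand. Of all AluS copies, 178 overlap a RefSeq promoter window and 4 a mature miRNA, and none of the copies shown had enough reads to be tested. Capitals mark CG dinucleotides in the first and second, which are the starts of copies on the minus strand at chr1:6828567-6828589 and chr1:28505693-28505711. The A-rich end comes from a plus-strand copy at chr17:18788785-18788799. The miRNA is encoded on the minus strand, and its capitals mark the 19 bases that lie inside a copy, at chr16:15010329-15010347.
AluSc, promoter window of LOC124903832: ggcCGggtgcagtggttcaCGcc
AluSz6, promoter window of SNHG3: gtCGaaCGCGgtggctcac
AluSx, A-rich end, promoter window of TVP23B: acaacaaaaaagaaa
AluSx, hsa-miR-1972: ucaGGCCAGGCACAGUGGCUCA
The AluSc copy, 8.2% diverged from its consensus, gave 2.15 ± 0.941 CPM in ORF1p RIP and 1.04 ± 0.344 CPM in mock IP (SD). CPM here means reads per 1000000 repeat reads after scaling. The AluSz6 copy, 15.1% diverged, gave 2.68 ± 1.41 CPM in ORF1p RIP and 0.348 ± 0.214 CPM in mock IP. The AluSx copy of TVP23B lay the other way, at 0.982 ± 0.494 CPM in ORF1p RIP and 3.31 ± 0.343 CPM in mock IP. The copy with hsa-miR-1972 gave 2.03 ± 1.20 CPM in ORF1p RIP and 0.659 ± 0.444 CPM in mock IP.

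Copies were most numerous in AluSx1 (112608), AluSx (111637) and AluSz (97971) and fewest in AluSq4 (1745). The median copy was 298 bases long and 10.9% diverged. By subfamily the median divergence ran from 8.9% in AluSg7 to 13% in AluSz6, so AluSg7 copies are the least and AluSz6 copies the most changed from their consensus. Plus and minus strand were equally represented, with 49.8% of copies on the plus strand. Relative to RefSeq gene spans, 39.3% of the copies lay outside any span, 25.4% ran against the gene and 19.9% ran with it. The remaining 15.5% lay in overlapping genes or genes of unknown strand. No read was assigned to 15.1% of the copies, and 13531 copies had reads in all 17 libraries.

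The libraries held 7693841 to 9125527 repeat reads in ORF1p RIP, 9795032 to 17056092 in ORF2p RIP, 12703395 to 16271143 in mock IP and 8937441 to 19670774 in total RNA. Total RNA replicates 1 and 2, whose labels contain "b", stood apart from replicates 3 to 6, whose labels contain "bl", and what the letters mean is not given. L1HS, the active LINE-1 subfamily whose RNA both proteins bind, stood at 15472 to 17613 CPM in ORF1p RIP replicates 1, 2 and 4 but at 53009 CPM in replicate 3, against 1686 to 1864 CPM in mock IP and 15720 to 17898 CPM in ORF2p RIP. Results on ORF1p RIP are therefore given without replicate 3 where it moved them. ORF1p RIP also lacked many single copies. Of 1270 AluS copies with a mean of at least 4 CPM in mock IP, 243 (19.1%) had at most 3 reads over all 4 ORF1p RIP libraries, against 1 in ORF2p RIP and 0 in total RNA. Over all repeat loci, 18.9% of those at this level in mock IP had so few reads in ORF1p RIP. This count was set up after the values were seen, and the part of the source label, the pull-down and the library preparation in it cannot be told apart.

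AluS reads made up 11.8%, 11.3%, 8.79% and 12.2% of the repeat reads in the ORF1p RIP libraries and 8.31%, 6.99% and 8.15% in mock IP. All ORF1p RIP libraries lay above all mock libraries, with a mean of 11.03% ± 1.54 against 7.82% ± 0.723 (SD), and of 11.8% without replicate 3 of ORF1p RIP. Without the 100 AluS copies with the most reads, ORF1p RIP held 7.11 to 10.5% and mock IP 6.66 to 7.98%, and the groups overlapped. That overlap was with replicate 3 of ORF1p RIP, the other 3 libraries holding 9.83 to 10.5%. The ORF2p RIP libraries held 8.52%, 6.74%, 6.49% and 7.76% and overlapped mock IP. Total RNA held 10.5% and 10.3% in the b libraries but 3.46%, 3.89%, 3.70% and 3.45% in the bl libraries, so its spread covered most of the range of the other groups. Among Alu reads alone, AluS copies took 57.5% ± 0.613 in ORF1p RIP, 56.9% ± 0.607 in ORF2p RIP and 55.7% ± 0.227 in mock IP.

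AluS reads were far more concentrated in the pull-downs of LINE-1 proteins than in mock IP. The smallest number of copies that held 50% of the AluS reads was 5831, 5841, 2173 and 5485 in ORF1p RIP and 5755, 5666, 5113 and 5930 in ORF2p RIP. In mock IP it was 19581, 17248 and 18963. Neither pull-down overlapped mock IP, with or without replicate 3 of ORF1p RIP, and total RNA ranged from 9804 to 23439 copies. Each library's own leading 100 copies took 17.6% ± 3.37 of AluS reads in ORF1p RIP, 15.5% ± 0.219 in ORF2p RIP and 5.19% ± 0.295 in mock IP.

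**Figure D1:**
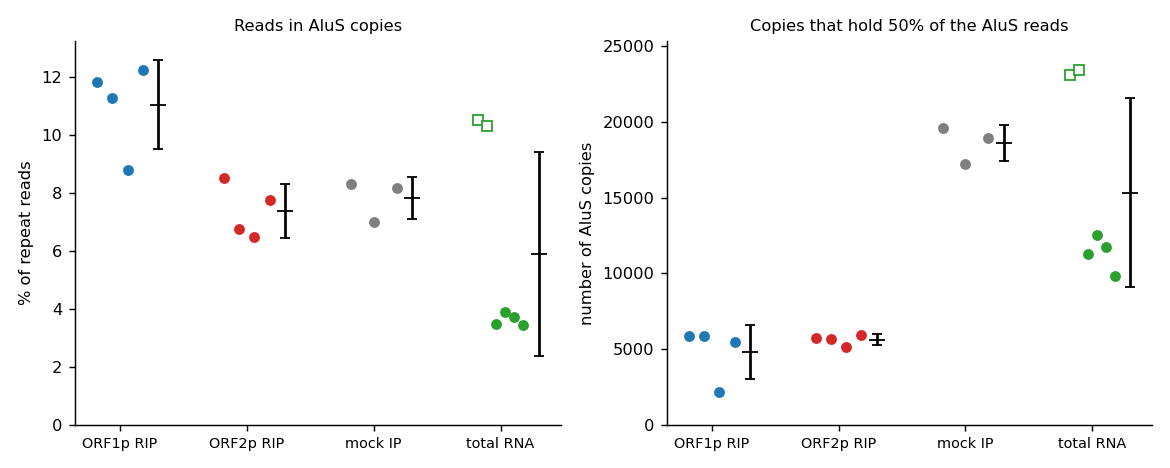
Share of repeat reads in AluS copies (left, %) and the number of copies that hold 50% of the AluS reads (right), 1 symbol per library and black marks for the group mean with its SD; open squares are the total RNA libraries labelled b. The ORF1p RIP libraries lie above mock IP on the left, and both ORF1p RIP and ORF2p RIP lie far below mock IP on the right.

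AluS copies near gene 3′ ends took a larger share of AluS reads in both pull-downs than in mock IP. Such copies, in the last 2 kb of a single gene span, number 6622, or 1.02% of all. This class was chosen after the values were seen, so its shares are given without a test. It took 14.8%, 14.3%, 16.5% and 15.3% of AluS reads in ORF1p RIP, against 4.19%, 4.38% and 4.32% in mock IP. ORF2p RIP lay between, at 7.83%, 7.33%, 7.32% and 7.68%, and no library of these 3 groups overlapped another group. Total RNA ran from 3.69% through a median of 4.38% to 5.14%.

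Removing the 100 AluS copies with the most reads left 9.17% ± 0.469, 5.56% ± 0.117 and 2.40% ± 0.0214 in ORF1p RIP, ORF2p RIP and mock IP. The 3 groups still did not overlap, so the order did not rest on those copies, of which 26 lie near a gene 3′ end. Copies there are split almost evenly by orientation, 0.508% of all copies running against the gene and 0.511% with it. In ORF1p RIP the copies against the gene took 10.1% ± 0.475 of AluS reads and those with the gene 5.10% ± 0.480. In ORF2p RIP the corresponding shares were 3.42% ± 0.132 and 4.13% ± 0.144, and in mock IP 2.82% ± 0.0871 and 1.48% ± 0.0139. Without the leading 100 copies the ORF1p RIP shares were 4.36% against and 4.81% with the gene, so the excess of the antisense side there came from leading copies. Whether the libraries kept RNA strand is not given, and orientation here describes the copy and not the transcript.

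The difference from mock IP shrank with distance from the gene 3′ end and then turned. Between 2 and 5 kb from it, AluS copies took 9.71% ± 0.670 of AluS reads in ORF1p RIP, 6.84% ± 0.185 in ORF2p RIP and 4.17% ± 0.0688 in mock IP, against 2.20% of copies. From 10 to 20 kb the groups were close, at 7.37%, 7.70% and 8.31%. Beyond 50 kb the shares were 18.9% ± 1.21 in ORF1p RIP and 18.9% ± 0.0677 in ORF2p RIP below 26.2% ± 0.233 in mock IP. The shares of copies near a gene's 5′ end were small, with 1.18% of AluS reads in ORF1p RIP, 1.12% in ORF2p RIP and 1.42% in mock IP. Other repeats near gene 3′ ends showed the same order: AluJ copies took 10.1%, 7.31% and 2.45% of AluJ reads in ORF1p RIP, ORF2p RIP and mock IP, and repeats outside the Alu family took 3.58%, 2.28% and 0.894%. The order of the groups was thus not particular to AluS copies. In such bulk libraries, fewer cells that hold an RNA and less of it per cell cannot be told apart.

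**Figure D2:**
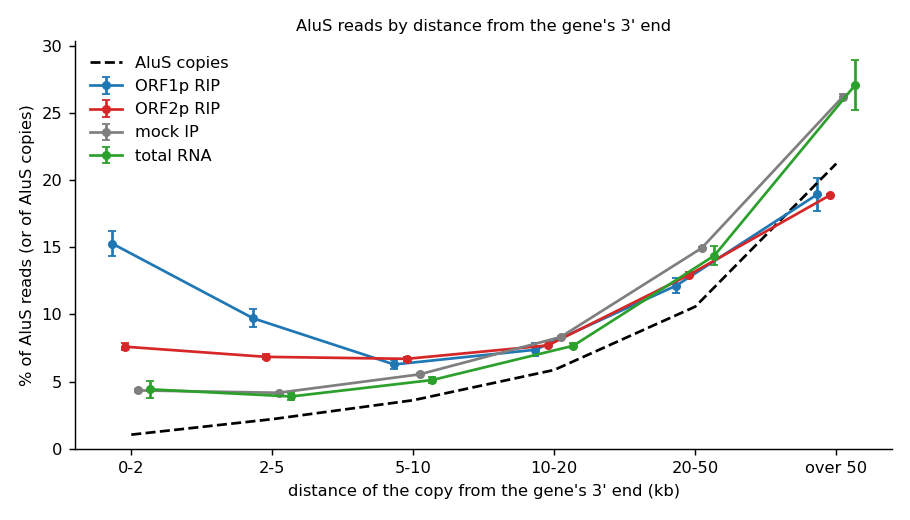
Share of AluS reads (%) by distance of the copy from the 3′ end of its gene span, as group mean with SD, with a dashed line for the share of copies. ORF1p RIP holds 15.3% and mock IP 4.35% in the first 2 kb, and both pull-downs of LINE-1 proteins fall below mock IP beyond 50 kb.

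AluS copies outside gene spans took a smaller share of AluS reads in ORF1p RIP than in any other group. They are 39.3% of copies but took 9.29% ± 0.961 of AluS reads in ORF1p RIP (8.61 to 10.7%), 17.2% ± 0.450 in ORF2p RIP (16.8 to 17.7%) and 15.9% ± 0.207 in mock IP (15.8 to 16.2%). Total RNA held 16.9% ± 1.67, from 14.7% to 18.5%. All ORF1p RIP libraries lay below all other libraries, while ORF2p RIP lay above mock IP without overlap. AluJ copies outside spans followed the same order, at 8.35%, 15.4% and 13.9%. AluY copies outside spans did so less clearly. They took 16.9%, 17.1%, 29.0% and 17.1% of AluY reads in ORF1p RIP, where replicate 3 lay above the 20.5 to 20.9% of mock IP. ORF2p RIP held 23.5 to 30.7%.

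Orientation and divergence differed less. Plus-strand copies took 52.8% ± 0.935 of AluS reads in ORF1p RIP against 50.5% ± 0.206 in ORF2p RIP and 50.4% ± 0.0917 in mock IP. Without the leading 100 copies the shares were 50.5%, 51.1% and 49.8%, so the difference in ORF1p RIP was smaller without them. Copies that ran against the gene took 29.7 to 30.3% in ORF2p RIP, below 34.6 to 36.5% in mock IP without overlap. In ORF1p RIP they took 32.6% in replicate 3 but 38.4 to 40.0% in the other 3 libraries, which lay above mock IP. Copies with an Alu on the opposite strand within 1 kb, where RNA could fold back on itself, took 25.9% ± 0.588, 25.2% ± 1.5 and 29.0% ± 0.377, against 45.0% of copies.

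AluS copies diverged by 5 to 10% had a larger share in the pull-downs than in mock IP. They took 33.5%, 33.5%, 32.9% and 33.8% of AluS reads in ORF1p RIP. ORF2p RIP held 31.3% ± 0.276 (31.1 to 31.7%) and mock IP 29.5% ± 0.282 (29.1 to 29.7%), and the 3 groups did not overlap. Without the leading 100 copies the means were 33.6%, 31.6% and 29.7%, still with no overlap. The least diverged copies, under 5%, are 0.172% of all. Their share in ORF1p RIP was 0.100 to 0.137%, below 0.138 to 0.141% in mock IP, and ORF2p RIP held 0.143 to 0.176%. Copies diverged by 15 to 20% were also below mock IP in ORF1p RIP, at 4.42% ± 0.0974 against 5.82% ± 0.0825. ORF2p RIP held 6.15% ± 0.203. Without the leading 100 copies the means were 4.86%, 5.91% and 5.77%, so the order of mock IP and ORF2p RIP turned. The read-weighted mean divergence moved by little, from 11.27% in mock IP to 11.14% in ORF2p RIP and 10.93% in ORF1p RIP.

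**Figure D3:**
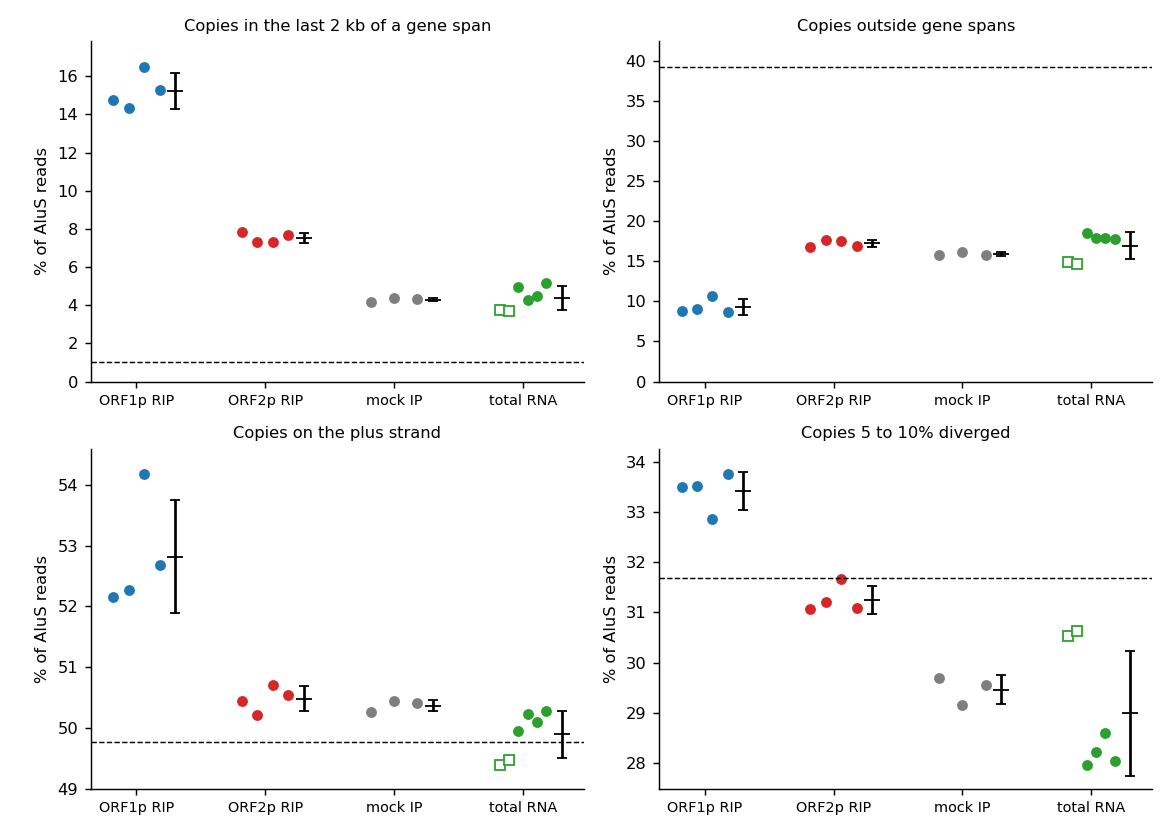
Share of AluS reads (%) from copies in the last 2 kb of a gene span, outside gene spans, on the plus strand and diverged by 5 to 10%, 1 symbol per library with group mean and SD; the dashed line is the share of copies, and the axes of the lower panels do not start at 0. ORF1p RIP stands apart from mock IP in all 4 panels.

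All 17 AluS subfamilies had a fitted level above mock IP in both pull-downs, but none passed the test with all total RNA libraries in the fit. For ORF1p RIP over mock IP the log2 changes ran from 0.30 in AluSc5 to 0.77 in AluSg7, with a median of 0.55 against 0.02 over all 1074 subfamilies tested. By edgeR's quasi-likelihood test 0 subfamilies were called higher, where 26% of all subfamilies were, and 0 lower (25.6% of all). The adjusted p (edgeR) ran from 0.0849 to 0.493, 2 subfamilies had an unadjusted p under 0.05, and DESeq2 also called 0. For ORF2p RIP over mock IP the median was 0.27 against -0.03 over all subfamilies, from 0.02 in AluSg4 to 0.63 in AluSg. Again 0 were called by edgeR (16.7% of all subfamilies higher, 15.5% lower), 0 had an unadjusted p under 0.05, and DESeq2 called 0. The highest fitted value had an SE of 0.358 in AluSg7 for ORF1p RIP and of 0.369 in AluSg for ORF2p RIP.

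These calls changed with the total RNA libraries in the fit. Without total RNA replicates 3 to 6, 16 of 17 AluS subfamilies were higher in ORF1p RIP than in mock IP (34.6% of all subfamilies). In ORF2p RIP 6 were higher than in mock IP (25.7%). Without total RNA replicates 1 and 2 the counts were 17 (34.9%) and 8 (26.9%). With all 6 left out, an alternative chosen after the data were seen, 16 of 17 AluS subfamilies were higher in ORF1p RIP than in mock IP (34.3% of all subfamilies) and 7 in ORF2p RIP (27.5%). With library totals in place of scaling factors the ORF2p RIP over mock IP median turned to -0.032, while all subfamilies shifted to -0.34, so the difference between AluS and all subfamilies stayed at 0.31. The direct comparison of ORF2p RIP over ORF1p RIP had a median of -0.33 (from -0.73 in AluSg7 to 0.24 in AluSg). It called 0 AluS subfamilies with edgeR (28.1% of all higher, 28.3% lower), with 1 at an unadjusted p under 0.05 and 0 with DESeq2. Without total RNA replicates 3 to 6, 1 was higher and 13 lower (35.9% and 35% of all). Without total RNA replicates 1 and 2 the counts were again 1 and 13 (36.4% and 35.5%).

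Against total RNA, all 17 subfamilies were higher in ORF1p RIP (29.1% of all subfamilies higher, 28.6% lower), with log2 changes of 0.80 to 1.31 and adjusted p from 0.00116 to 0.0162 by edgeR. In ORF2p RIP 10 were higher (18% of all higher, 20.6% lower), with a median of 0.75. That count ran from 2 without ORF2p RIP replicate 1 to 17 without total RNA replicate 1 or 2. It was 3 without total RNA replicate 3, 4 without ORF2p RIP replicate 4 and 6 without total RNA replicate 4, 5 or 6. With library totals it was 1 (7.73% of all subfamilies). Mock IP over total RNA called 0 (2.23% of all higher, 0.652% lower; edgeR, 0 at an unadjusted p under 0.05, DESeq2 0), with a median of 0.55. This rested on which total RNA libraries were used. Without replicates 1 and 2, 17 were higher, and the share of all subfamilies called higher rose as well, to 32.8%. Without replicate 1 alone 16 were higher and without replicate 2 alone 11, and the median turned to -0.23 without replicates 3 to 6. Leaving out total RNA replicates 3 to 6 gave 9 calls higher for ORF1p RIP (35.2% of all subfamilies). For ORF2p RIP it gave 1 higher and 1 lower (27.5% and 28% of all). For ORF1p RIP over mock IP the medians were 0.52 for 25 AluY subfamilies, 7 of them higher and 1 lower by edgeR, and 0.39 for 4 AluJ subfamilies with 0 called. For ORF2p RIP over mock IP they were 0.21 for AluY, with 5 higher and 1 lower, and -0.047 for AluJ with 0 called.

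**Figure D4:**
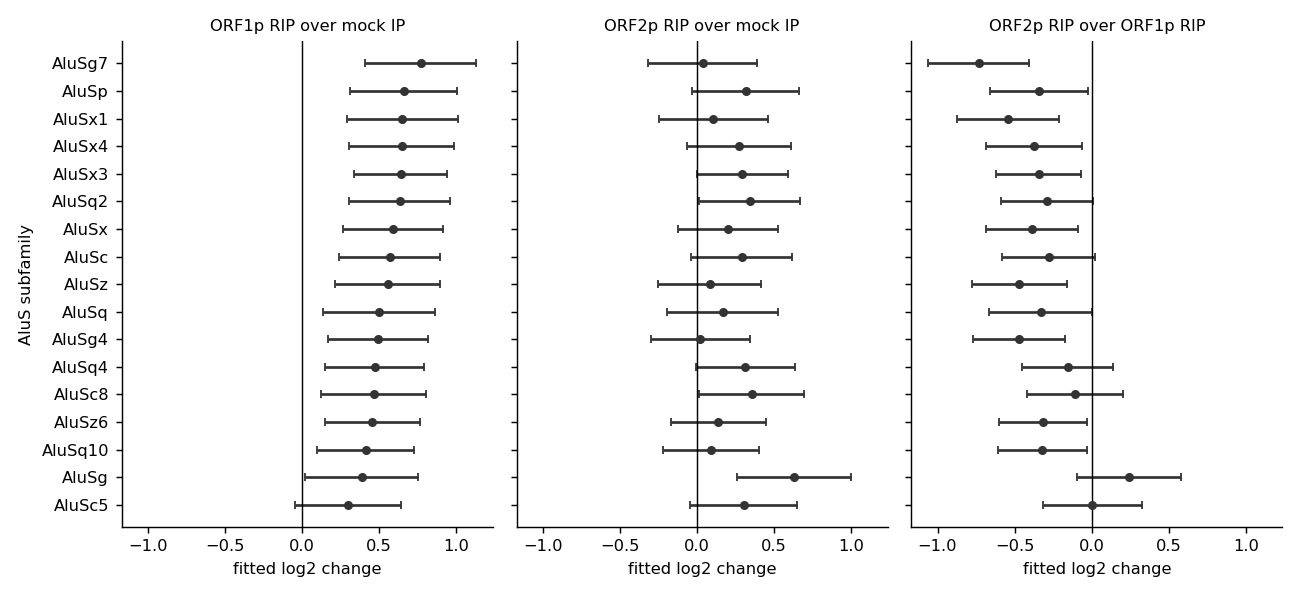
Fitted log2 changes with SE of the 17 AluS subfamilies for ORF1p RIP over mock IP, ORF2p RIP over mock IP and ORF2p RIP over ORF1p RIP, ordered by the first. The first spans 0.30 to 0.77 and the second 0.02 to 0.63, and the error bars are wide against these values.

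Splitting each subfamily by strand and divergence gave 156 AluS classes. By edgeR, 20 were higher and 5 lower in ORF1p RIP than in mock IP (22.6% and 23.1% of all 5901 classes). In ORF2p RIP 7 were higher and 3 lower (12.8% and 12.9%), and with library totals 3 and 9. Between the pull-downs, 12 classes were higher and 26 lower in ORF2p RIP (24.7% and 27.2%). Without total RNA replicates 3 to 6, 66 of 155 AluS classes were higher in ORF1p RIP than in mock IP (26.8% of all classes) and 32 in ORF2p RIP (18.1%). Of the 34 classes diverged by 5 to 10%, 7 were higher and 0 lower in ORF1p RIP, beside 22.6% and 23.1% of all classes. Their median log2 change was 0.63, against 0.37 for the classes diverged by 10 to 15%. Between these bins, the less diverged had the larger value in 13 of 17 subfamilies. The 29 classes diverged by under 5% had a median of 0.14, with 3 higher and 1 lower. The strands were even, with 10 higher classes on each, of 77 on the plus and 79 on the minus strand. Shares called over all classes of the same bin or strand were not counted. The counts by bin and strand are therefore not read as a result about AluS divergence or strand.

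In some of the called classes 1 copy held much of the reads. The plus-strand AluSx4 class diverged by 15 to 20% (130 copies) stood at 268 CPM in ORF1p RIP and 29.4 CPM in mock IP (log2 3.19, adjusted p = 4.42e-09, edgeR), and 89.2% of the former came from 1 copy in the RPL13 span (a ribosomal protein gene) at chr16:89563331-89563590. The minus-strand AluSx class diverged by 15 to 20% rose from 438 CPM in mock IP to 1063 CPM in ORF2p RIP (log2 1.28, adjusted p = 0.0019, edgeR). A copy in the span of ZNF208, a zinc finger gene, at chr19:21967443-21967685, gave 457 ± 50.8 CPM of that, against 20.1 CPM in mock IP. The plus-strand AluSg7 class diverged by 5 to 10% was broader: it rose from 314 to 848 CPM in ORF1p RIP (log2 1.43, adjusted p = 0.00289, edgeR), and its leading copy, in LOC105371814, gave 30.5%. Plus-strand AluSx copies diverged by 5 to 10% rose from 1429 to 3051 CPM (log2 1.09, adjusted p = 0.0028, edgeR), with 18.2% from a copy in RBM3, a cold-inducible RNA-binding protein gene.

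At single copies the test was run on 71371 repeat loci, of which 4645 were AluS, or 0.715% of AluS copies. They held 42.9 to 52.6% of AluS reads in ORF1p RIP but only 22.0 to 23.2% in mock IP, so the tested copies are those with many reads in some group. By edgeR with an adjusted p under 0.05 and a change of at least 2-fold, 2480 AluS copies were higher and 1059 lower in ORF1p RIP than in mock IP (36.7% and 35.4% of all loci tested). In ORF2p RIP 1433 were higher and 349 lower than mock IP (24.6% and 14.3%), and with library totals 1048 and 556 (19.8% and 22.9%). Between the pull-downs, 1468 were higher and 1970 lower in ORF2p RIP (41.1% and 30.8%).

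For ORF1p RIP over mock IP the direction of the calls differed with the position of the copy. Among tested AluS copies outside gene spans 177 of 687 were higher and 383 lower in ORF1p RIP than in mock IP, beside 25.4% and 55.6% of all loci outside spans. Among the 528 tested copies within 2 kb of a gene 3′ end, 456 were higher and 14 lower, beside 80.4% and 6.46% of all such loci. That class was chosen after the values were seen, and 528 of its 6622 copies were tested. A copy could enter the test through the group in which it had many reads. The counts therefore describe the tested copies only and are no test of the class. For ORF2p RIP over mock IP the same 528 copies gave 222 higher and 6 lower (40.0% and 3.10% of such loci), and the 687 copies outside gene spans gave 242 higher and 50 lower (31.4% and 12.7% of such loci). In ORF2p RIP higher calls thus outnumbered lower ones at both positions, for AluS copies as for all loci there. Over all loci tested the shares were 24.6% higher and 14.3% lower, and with library totals 19.8% and 22.9%. The lean was therefore not particular to AluS copies or to these positions, and over all loci it turned with the scaling.

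The 5 copies with the largest mean shares of AluS reads over the 4 groups, chromosome 8 left out, differed in which pull-down held them. A copy of AluSx1 (10% diverged) at chr6:106970530-106970829, 848.5 bases from the 3′ end of CD24, which encodes a cell-surface glycoprotein, was the highest in ORF1p RIP. It gave 2868, 2823, 3942 and 3459 CPM in ORF1p RIP, 142, 109, 90.8 and 110 CPM in ORF2p RIP and 82.1, 68.4 and 82.8 CPM in mock IP. Total RNA ran from 93.6 through a median of 105 to 128 CPM. Every ORF1p RIP library lay far above the others, with a log2 change over mock IP of 5.39 ± 0.307 (SE, adjusted p = 3.42e-11, edgeR). ORF2p RIP over mock IP did not pass (0.54, adjusted p = 0.0883, edgeR; 0.0187 with DESeq2). This copy alone held 2.91% of the AluS reads in ORF1p RIP, and the 2 other repeats of the gene gave 3.12 CPM there.

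EIF2S3 encodes a subunit of the translation initiation factor eIF2. Its AluSx copy, chrX:24077072-24077365, 1591.5 bases from the gene 3′ end, gave 716, 624, 818 and 777 CPM in ORF1p RIP, 147, 130, 107 and 119 CPM in ORF2p RIP and 37.2, 37.4 and 37.2 CPM in mock IP. The 3 groups did not overlap. The copy rose by 4.30 ± 0.390 on the log2 scale in ORF1p RIP (adjusted p = 8.87e-09, edgeR) and by 1.75 ± 0.344 in ORF2p RIP (adjusted p = 0.000404, edgeR). Total RNA ran from 25.4 through 29.2 to 61.3 CPM. The gene's 13 other repeats stood at 571 CPM in ORF1p RIP, 518 in ORF2p RIP and 228 in mock IP.

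HSP90B1 encodes a chaperone of the endoplasmic reticulum, and its AluSx copy at chr12:103937886-103938188 runs with the gene. It gave 367, 351, 1070 and 397 CPM in ORF1p RIP, 161, 267, 281 and 200 CPM in ORF2p RIP and 84.4, 87.6 and 81.0 CPM in mock IP, with replicate 3 of ORF1p RIP far above the rest of its group. Total RNA ran from 85.3 through 201 to 295 CPM and overlapped ORF2p RIP. The log2 change was 2.69 ± 0.484 for ORF1p RIP over mock IP (adjusted p = 4.91e-05, edgeR). It was -1.26 for ORF2p RIP over ORF1p RIP (adjusted p = 0.00917, edgeR), and without replicate 3 of ORF1p RIP that call was lost (-0.71, adjusted p = 0.0836, edgeR). The call for ORF2p RIP over mock IP (log2 1.43 ± 0.458, adjusted p = 0.0167, edgeR) was lost without mock IP replicate 1 or 3 (0.0539 and 0.0581).

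The copy in DPPA4, a pluripotency-associated gene, went the other way. This AluSx1 copy, chr3:109327390-109327685, 1393.5 bases from the gene 3′ end, gave 801, 768 and 826 CPM in mock IP. It gave 254, 280, 322 and 231 CPM in ORF1p RIP and 465, 305, 244 and 373 CPM in ORF2p RIP, and both lay below mock IP without overlap. Total RNA ran from 61.3 through 69.2 to 311 CPM. The fall was -1.55 ± 0.502 in ORF1p RIP (adjusted p = 0.00884, edgeR) and -1.20 ± 0.500 in ORF2p RIP, which did not pass (adjusted p = 0.0612, edgeR; 0.000134 with all total RNA left out).

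CRIPTO encodes a co-receptor for Nodal signals. Its AluSx3 copy at chr3:46581507-46581810, 798.5 bases from the gene 3′ end, gave 54.3, 54.1, 71.8 and 78.8 CPM in ORF1p RIP, 477, 248, 264 and 392 CPM in ORF2p RIP and 128, 116 and 145 CPM in mock IP. The pull-downs lay on opposite sides of mock IP, and total RNA, from 212 through 249 to 258 CPM, lay above it. The log2 change was -1.0 in ORF1p RIP (adjusted p = 0.00243, edgeR) and 1.41 in ORF2p RIP (adjusted p = 0.000503, edgeR), and 2.41 between them (adjusted p = 9.1e-08, edgeR). The DPPA4 and CRIPTO copies lie near gene 3′ ends and fell in ORF1p RIP, unlike most tested copies there.

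**Figure D5:**
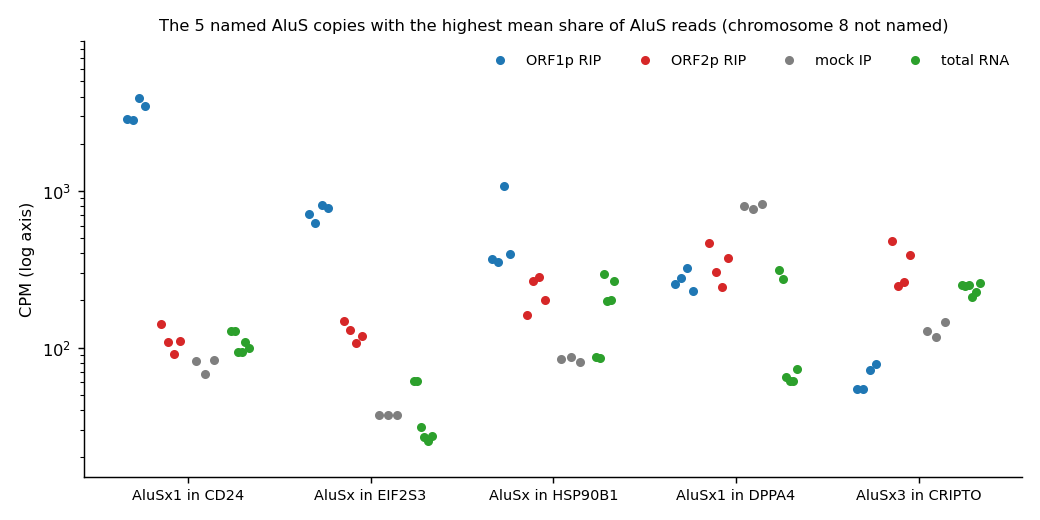
CPM (log axis) of the 5 AluS copies outside chromosome 8 with the largest mean shares of AluS reads over the 4 groups, 1 symbol per library. The CD24 and EIF2S3 copies are highest in ORF1p RIP, the CRIPTO copy in ORF2p RIP and the DPPA4 copy in mock IP.

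The largest rises in ORF1p RIP over mock IP were copies with almost no reads in mock IP. Their folds are given against the 3 reads over the group that a count of 0 allows. An AluSx1 copy in LOC105372548 (chr20:17880464-17880768) gave 18.7, 16.9, 8.87 and 19.8 CPM in ORF1p RIP and 0 in every mock library, at least 247-fold higher. An AluSx copy in MAP1LC3C, an autophagy gene (chr1:241995637-241995931), gave 5.55, 5.71, 3.54 and 8.05 CPM against 0, at least 87.9-fold higher. The AluSc5 copy of ITIH5, a hyaluronan-binding family gene (chr10:7559844-7560149), gave 3.82, 5.63, 2.66 and 6.73 CPM and was at least 72.4-fold higher. The other repeats of the same genes also stood higher in ORF1p RIP than in mock IP, in ITIH5 (117 repeats, 44.6 against 2.57 CPM) and in LOC105372548 (12 repeats, 30.9 against 0.383 CPM). The 1 other repeat of MAP1LC3C was at 0 CPM in both.

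The largest falls in ORF1p RIP were copies outside gene spans that had reads in every library of mock IP and ORF2p RIP. The AluSx1 copy at chr4:19040373-19040685 gave 26.5, 23.0 and 19.4 CPM in mock IP, 23.1, 20.3, 10.9 and 20.7 CPM in ORF2p RIP and 0 in all 4 ORF1p RIP libraries, at least 248-fold lower than mock IP. The AluSg copy at chr6:14296502-14296794 gave 20.4, 24.9 and 22.5 CPM in mock IP and was at least 244-fold lower. The AluSx copy at chr10:106061656-106061952 gave 22.5, 16.3 and 21.8 CPM in mock IP and was at least 218-fold lower. ORF2p RIP over mock IP passed the test at none of these 3 copies (adjusted p from 0.062 to 0.689, edgeR).

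In ORF2p RIP over mock IP the largest rises ran with their genes. The AluSz6 copy of WFDC10B, a gene of the whey acidic protein family (chr20:45686665-45686960), gave 5.20, 3.22, 7.22 and 4.65 CPM against 0 in mock IP, at least 78.0-fold higher, and the gene's 21 other repeats stood at 207 against 14.6 CPM. The AluSq2 copy of TCFL5, which encodes a helix-loop-helix transcription factor (chr20:62845124-62845421), gave 15.4, 7.65, 6.18 and 15.3 CPM against 1 read over the mock libraries, a ratio of 547 with a 95% counting interval of 96.9 to 21477. The AluSp copy in SRGAP2B (chr1:144888777-144888936) gave 19.5, 11.9, 11.1 and 13.3 CPM, a ratio of 395 (95% interval 115 to 25414). That copy also rose in ORF1p RIP over mock IP, to 2.64 ± 0.799 CPM (log2 6.42, adjusted p = 1.28e-06, edgeR). At the WFDC10B and TCFL5 copies ORF1p RIP over mock IP did not pass (adjusted p = 0.219 and 0.0848, edgeR). SRGAP2B has near-identical paralogs, so the assignment of its reads is uncertain, and the intervals cover counting error only.

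The largest falls in ORF2p RIP included a copy in SERINC5, a membrane protein gene (AluSx, chr5:80184885-80185166). It gave 7.08, 10.6 and 6.97 CPM in mock IP and 0.426, 1.15, 0.523 and 0.482 CPM in ORF2p RIP (log2 -3.71, adjusted p = 0.000123, edgeR). ORF1p RIP was also low at this copy, at 0.630 ± 0.541 CPM (log2 -3.68 over mock IP, adjusted p = 4.12e-05, edgeR). The other falls were AluSx1 copies on chromosome 21 at chr21:8414763-8414991 (log2 -4.01, adjusted p = 0.023, edgeR; 0.0742 with DESeq2) and chr21:8455180-8455209 (log2 -3.93, adjusted p = 0.00283, edgeR). These lie in repeated sequence of that chromosome arm, and their reads are uncertain. Both were also lower in ORF1p RIP than in mock IP (log2 -10.2 and -10.1, adjusted p = 0.00111 and 3.4e-05, edgeR). The falls in this paragraph were thus not particular to ORF2p RIP.

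Between the pull-downs, the copies with the largest differences had almost no reads in 1 of them. The AluSg7 copy of MEG3, a maternally expressed non-coding RNA gene (chr14:100833267-100833557), gave 39.4, 18.6, 14.8 and 26.4 CPM in ORF2p RIP and 0.00961, 0, 0 and 0 CPM in ORF1p RIP, at least 268-fold higher. MEG3's 26 other repeats gave 0.383 CPM in ORF1p RIP, 109 in ORF2p RIP, 119 in mock IP and 62.6 in total RNA. Reads of the repeats in the gene span were thus nearly missing from ORF1p RIP, and reads outside repeats were not measured. The AluSz6 copy shared by A2ML1 and A2ML1-AS1 (chr12:8826450-8826614) was at least 431-fold higher in ORF2p RIP, and the AluSp copy at chr9:85935998-85936266 at least 216-fold. On the other side, the AluSz6 copy of NNT, the mitochondrial transhydrogenase gene (chr5:43606976-43607163), gave 23.0, 19.3, 19.7 and 17.6 CPM in ORF1p RIP and 0 in ORF2p RIP, at least 277-fold higher in ORF1p RIP. NNT's 97 other repeats stood at 195 against 11.6 CPM. The AluSg7 copy at chr11:9660098-9660393 (at least 281-fold) and the AluSc8 copy in LOC105373134 (chrX:13158561-13158857, at least 287-fold) were likewise higher in ORF1p RIP.

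A single AluSg copy on chromosome 8, in the span of the telomere protein gene TERF1, carried the high AluSg value of ORF2p RIP. The naming rule leaves out chromosome 8, and the copy was added after its values were seen. Its mean share of AluS reads over the 4 groups was above those of all the copies described here but the CD24 copy. It gave 2201, 1851, 1511 and 1859 CPM in ORF2p RIP, 82.1, 76.1 and 85.9 CPM in mock IP and 44.9 to 70.3 CPM in ORF1p RIP (log2 4.51 ± 0.307 over mock IP, adjusted p = 1.55e-08, edgeR). TERF1's 59 other repeats stood at 1192 ± 77.7 CPM in ORF2p RIP and 356 ± 8.89 CPM in mock IP. AluSg held 7.12% of AluS reads in ORF2p RIP against 5.36% in mock IP, and without this copy 5.01% against 5.25%.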

How the data were processed

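Per the submitters' processing notes, reads were aligned with STAR to hg38. The authors deposited expected counts per repeat locus, partly fractional. The counting program, the treatment of reads that match several copies and strand use are not given in the sources used here. Per the labels' protocols, RNA from pull-downs was recovered with TRIzol and made into ribosomal-RNA-depleted libraries. Of 60 value columns, 43 matched no sample and were not used. The members and lists were chosen with earlier results of these data known.

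Expected counts were summed per subfamily and per class (subfamily, strand, 5% divergence bin). The sums and the counts per locus were then rounded. They were tested with edgeR 4.0.16 (quasi-likelihood, TMM factors from the subfamily table, one fit over all 4 groups, Benjamini-Hochberg adjustment over all features tested) in R 4.3.3 with limma 3.58.1. DESeq2 1.42.0 was an alternative. The tests ran on filters of min.count 10 (subfamilies, classes) and 50 (loci), at adjusted p 0.05, and 2-fold for loci. Tables were made with Python 3.11.15, pandas 2.3.3 and numpy 2.4.6, and the scripts were tested on simulated data. Divergence was read as changed bases per 1000. CPM is counts per 1000000 repeat reads scaled by TMM. Gene context came from 38382 RefSeq spans of protein-coding and long non-coding genes (GRCh38.p14), 27304 with strand. A copy was near a 3′ end if its midpoint lay in a single stranded span within 2 kb of that end and nearer to it than to the 5′ end. The bins of distance did not use the second condition. Exons and untranslated regions were not used.

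Single copies were named as follows: in each of 3 locus comparisons, the 3 higher and the 3 lower called AluS copies with the largest fitted change, at least 4 CPM in 1 group's mean and no overlap. The 5 copies with the highest mean share of AluS reads over the 4 groups were added. Both steps left out copies on chromosome 8. Outlying libraries were looked for in 72 groups, at copies only where the group's mean reached 1 CPM. No pair of libraries was a duplicate, the closest differing by a chi-square per degree of freedom of 12.8. Deviations of samples with the same replicate number had correlations of both signs, from -0.469 to 0.448. All pairs of replicate 1 were positive, from 0.106 to 0.443. The labels name no pairs, and the numbers were not taken as pairs. A fit with the replicate number as a block is given below.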

Additional observations from a re-analysis of the deposited data

Results flagged for a closer look

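3 of the 72 groups of 4 to 6 libraries tested held 1 library far from the rest. Chance gives about 1 in 20 independent groups. The groups tested share libraries, so the number of flags cannot show whether a flag came by chance. ORF1p RIP replicate 3 also stood apart over all subfamilies. Its chi-square per degree of freedom to the other ORF1p RIP libraries was 449 to 501, against 12.8 to 24.9 among those. In ORF1p RIP replicate 3, 2173 AluS copies held 50% of the AluS reads, against 5485 to 5841 in the other libraries of the group. The HSP90B1 AluSx copy stood at 1070 CPM in the same library, against 351 to 397 CPM in the other ORF1p RIP libraries. The SRGAP2B AluSp copy stood at 3.83 CPM in ORF1p RIP replicate 2, against 2.11 to 2.35 CPM in the others.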

How the results depend on the processing

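Counts below are of AluS features, higher and then lower unless said. With min.count 20 at loci, ORF1p RIP over mock IP gave 5542 and 3550, ORF2p RIP over mock IP 2274 and 1186, and ORF2p RIP over ORF1p RIP 4106 and 5378. With min.count 100 they gave 1261 and 387, 842 and 112, and 631 and 936. These filters change how many copies are tested (15762 and 1948 against 4645). With library totals, ORF2p RIP over mock IP had 556 loci lower, 3 classes higher and 9 lower and a subfamily median of -0.0319. ORF2p RIP over ORF1p RIP then had 1 subfamily lower and 7 classes higher, and ORF2p RIP over total RNA 1 subfamily higher. Without total RNA replicates 1 and 2, subfamilies higher were 17 for ORF1p RIP over mock IP and 8 for ORF2p RIP over mock IP. Over total RNA they were 17 for ORF2p RIP (30% of all subfamilies) and 17 for mock IP (32.8%). ORF2p RIP over ORF1p RIP gave 1 and 13. Classes gave 69 and 18, 33 and 14, and 23 and 63 in the 3 comparisons, and loci 641 lower in ORF1p RIP than in mock IP and 976 higher in ORF2p RIP than in ORF1p RIP. Without total RNA replicates 3 to 6, subfamilies higher were 16 and 6 over mock IP and 9 for ORF1p RIP over total RNA. ORF2p RIP over ORF1p RIP gave 1 and 13, ORF2p RIP over total RNA 1 and 1, and the median of mock IP over total RNA turned to -0.23. Classes then gave 66 and 14, 32 and 12, and 22 and 63. With all total RNA left out, chosen after the data were seen, subfamilies higher were 16 and 7 over mock IP, and ORF2p RIP over ORF1p RIP gave 1 and 12. Classes then gave 65 and 14, 32 and 10, and 23 and 57, and loci 566 lower in ORF1p RIP than in mock IP and 901 and 1310 in ORF2p RIP over ORF1p RIP. The cause of these shifts was not tested. With the replicate number as a block, subfamilies higher were 2 for ORF1p RIP over mock IP and 4 for ORF2p RIP over total RNA, 1 was lower in ORF2p RIP than in ORF1p RIP, 31 classes were higher in ORF1p RIP than in mock IP and 1 lower in ORF2p RIP than in mock IP. No other count of calls moved by over 1.5 times under the block. The AluS share was 9.43% in ORF1p RIP and 6.38% in ORF2p RIP without the 100 leading copies and 7.02% in mock IP over copies of at least 250 bases. As a share of Alu reads it was 57.5% in ORF1p RIP, 56.9% in ORF2p RIP, 55.7% in mock IP and 54.0% in total RNA.

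Leaving out each library in turn gave, at loci, 2097 to 2628 higher and 787 to 1122 lower for ORF1p RIP over mock IP, 1083 to 1479 and 219 to 380 for ORF2p RIP over mock IP, and 1085 to 1605 and 1571 to 2166 for ORF2p RIP over ORF1p RIP. Subfamilies higher were 0 to 2 for ORF1p RIP over mock IP, 0 to 0 for ORF2p RIP over mock IP and over ORF1p RIP, 16 to 17 for ORF1p RIP, 2 to 17 for ORF2p RIP and 0 to 16 for mock IP over total RNA. Subfamilies lower were 0 to 1 for ORF2p RIP over ORF1p RIP and 0 to 0 in the other comparisons. Classes were 13 to 33 and 3 to 8, 4 to 10 and 0 to 4, and 10 to 13 and 17 to 33. Shares were 10.6 to 11.8% in ORF1p RIP, 6.99 to 7.67% in ORF2p RIP, 7.57 to 8.23% in mock IP and 4.96 to 6.37% in total RNA. Subfamilies higher in ORF1p RIP than in mock IP moved from 0 in 2 of these fits. Subfamilies lower in ORF2p RIP than in ORF1p RIP also did so in 2. Against total RNA, the subfamily counts moved by over 1.5 times without total RNA replicate 1 (17 for ORF2p RIP and 16 for mock IP over total RNA) or replicate 2 (17 and 11). For ORF2p RIP they also did without total RNA replicate 3 (3), replicate 4, 5 or 6 (6 each), or ORF2p RIP replicate 1 (2) or 4 (4). Class counts moved by over 1.5 times without ORF1p RIP replicate 1, mock IP replicates 1 to 3, total RNA replicates 1 and 2 or ORF2p RIP replicates 2 to 4. Loci lower in ORF2p RIP than in mock IP moved so without mock IP replicate 1 (219). Of 911 alternatives of 36 named copy results, 886 kept direction and side of the threshold, 9 lost the call, 16 gained one and 0 reversed. Among the lost calls were the chr21:8414763 copy (adjusted p 0.0508 to 0.0625 without single libraries, edgeR) and HSP90B1 in ORF2p RIP over mock IP (0.0539 and 0.0581 without mock IP replicate 1 or 3, edgeR).

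Most AluS copies had too few reads to be tested singly, and the way reads were shared among near-identical copies is unknown. Differences at single copies between near-identical sequences are therefore limited by that step. Pull-down and source label cannot be told apart for ORF1p RIP.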

Other observations

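Copies missing from a pull-down were counted in every direction. Of 2094 AluS copies with a mean of at least 4 CPM in ORF2p RIP, 278 (13.3%) had at most 3 reads over the ORF1p RIP libraries. Over the mock IP libraries 10 (0.478%) had so few. The shares of all repeat loci at this level were 16.5% and 0.253%. Of 669 such copies in total RNA, 123 (18.4%, beside 21.1% of all such loci) had so few in ORF1p RIP. None had so few in ORF2p RIP or mock IP (0.0106% and 0% of all such loci). Of 2960 such copies in ORF1p RIP, 109 (3.68%) had so few in ORF2p RIP and 41 (1.39%) in mock IP. Over all such loci the shares were 3.98% and 1.33%. Among the 243 copies at this level in mock IP and missing from ORF1p RIP, 123 (50.6%) lay outside gene spans, beside 54.2% of all such loci. The AluS shares were thus near those of all loci.

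Per megabase of sequence, AluS subfamilies ranged from 428 CPM (AluSc5) to 697 CPM (AluSp) in ORF1p RIP, from 407 (AluSg4) to 601 (AluSg) in ORF2p RIP and from 348 (AluSc5) to 501 (AluSz6) in mock IP. Among the 4 Alu monomer subfamilies, 3 were higher in ORF1p RIP than in mock IP by edgeR (median log2 change 0.58; 26% of all subfamilies were higher). In ORF2p RIP 0 of the 4 were called (16.7% of all subfamilies higher; edgeR, 0 at an unadjusted p under 0.05), with a median of -0.065.

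A minus-strand AluSq2 copy in ZNF90 at chr19:20119620-20119883 gave 75.1 ± 12.9 CPM in ORF2p RIP and 8.41 ± 1.46 CPM in mock IP. It held 52.3% of the reads of the 505 copies of its class in ORF2p RIP. Like the ZNF208 copy, it lies in a zinc finger gene on chromosome 19, and both were named after their values were seen.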
